A study of Mus musculus with 2 samples.

Results

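The 9 genes described here are 5 subunits of the transcription factor NF-κB (Nfkb1, Nfkb2, Rel, Rela and Relb) and 4 inhibitors that the factor itself induces (Nfkbia, Nfkbie, Nfkbiz and Tnfaip3). They were chosen by symbol from the 32285 genes of the count matrix, of which 18802 had at least 1 UMI (a unique molecular identifier, the tag that counts 1 captured transcript). All 9 were detected. The data are 1 droplet library of 3′ transcript ends from 2349 cell barcodes. It mixes 1 pool of ovariectomized (OVX) and 1 pool of sham-operated female BALB/c mice, which the study's methods give as 20 mice per condition, 10 weeks old at surgery and killed 4 weeks later. No treatment other than surgery is given for either pool. Femurs and vertebrae were cleared of periosteum and flushed of marrow, digested with trypsin and then overnight with collagenase D, and sorted on CD11b, F4/80 and CD68 as osteal macrophages (Omacs). Hashtag antibodies marked the pools, and 1059 barcodes were called OVX, 981 sham, 231 under both cutoffs and 78 positive for both, beside 1037 OVX and 1084 sham cells said to have been loaded.

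In resting cells NF-κB dimers are held in the cytoplasm by IκB proteins, and signals from Toll-like, interleukin and TNF receptors release them by activating the IκB kinase complex. The released dimers induce chemokines and survival genes together with their own brakes, so that the transcripts of several inhibitors are commonly read as a trace of recent NF-κB activity. In neutrophils and stromal cells this pathway controls chemokine production, and in bone it is best known for its part in osteoclast formation.

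Depth was 17681092 UMIs in all, with a median of 4387 per barcode (range 500 to 141565). Levels are given as UMIs per 1000000 UMIs of a group (CPM) with exact Poisson 95% intervals. Ratios carry exact conditional binomial intervals and shares of cells exact Clopper-Pearson ones. None of these intervals covers the spread between animals, only that of counting. Each condition is a single pool in a single library, so there is no replicate, no test and no p-value. A gene was called higher or lower at 1.5-fold or more, among genes at 20 CPM or more over the groups compared. The share of all such genes called is given beside the counts made at these settings. One library prepared once cannot separate a condition from its pool, sort or hashtag.

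The cells were clustered without the 9 genes and without 70 further genes of the pathway, so that no level of theirs placed a cell. Of 7 clusters, 5 carried neutrophil markers and held 2021 barcodes (86.0%). These were a cycling cluster (49 cells, led by histone genes and Top2a), an immature neutrophil-like cluster led by the granule genes Ltf, Camp and Ngp (248), a stefin cluster led by Retnla, Stfa2 and Cstdc5 (474), a Retnlg-led cluster (842) and a Jaml-led cluster (408), in which Mpzl2, Clec4n, Mpeg1 and Ccl3 also led. A stromal-like cluster (210 cells) was led by Prg4, Saa1, Ccn2, Chad and Dcn. The last cluster (118 cells) was led by Pf4, Ppbp, H2-Aa and Arg1 and is called Pf4-led. Arg1 is on the macrophage list used here, and Pf4 and Ppbp are on the platelet list. Of the 4 genes on the platelet list, only these 2 were detected in the cluster, and Itga2b and Gp9 were not.

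The macrophage label went against the markers. Macrophage markers summed to 42 to 178 CPM in the 5 neutrophil clusters, against 292782 CPM for the neutrophil list over them, and reached 5810 CPM in the Pf4-led cluster. Stromal cells had Itgam (CD11b, a gate of the sort) at 23.8 CPM and Ptprc (CD45) at 6.03 CPM, against 1775 CPM of Itgam in the neutrophil clusters. Transcripts that mark a kind of cell were also found in others. Dcn stood at 91.1 CPM in neutrophil clusters and 16519 CPM in stromal cells. S100a8 stood at 728 CPM in stromal cells, 8415 CPM in the Pf4-led cluster and 111028 CPM in neutrophil clusters. In the Pf4-led cluster the neutrophil list summed to 20771 CPM, above its macrophage sum. There 5 cells held 56.2% of the S100a8 UMIs, and in stromal cells 5 cells held 40.6%. Whether free RNA, carried RNA or doublets gave these counts was not tested. No cell type in the library is known to lack the 9 genes, so no background share could be given for them.

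The κB consensus, the short sequence to which NF-κB dimers bind, was searched on both strands in the RefSeq windows from 250 bases before to 50 after each gene's start (GRCm38.p6). Windows were on hand for 6 of the 9 genes, not for Nfkb1, Relb and Nfkbiz, and 5 of the 6 held a match. Rela did not hold these letters in its window. For each gene the nearest site before a start is printed, because NF-κB is known to induce several of its inhibitors through such sites. Each is 30 bases, 5′ to 3′ on the gene's strand, with the match in capitals. The start is a RefSeq one. The Nfkb2 sites printed lie inside the GENCODE gene model and in an exon of it, the Tnfaip3 site lies inside the gene model but in no exon, and the other sites lie outside their gene models.
Nfkbia, chr12:55492657-55492686, minus strand, 29 bases before the start: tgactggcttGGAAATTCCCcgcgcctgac
Nfkb2, chr19:46304716-46304745, plus strand, 11 bases before the start: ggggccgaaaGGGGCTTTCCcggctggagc
Tnfaip3, chr10:19015403-19015432, minus strand, 12 bases before the start: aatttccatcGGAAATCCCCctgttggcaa
Rel, chr11:23771041-23771070, minus strand, 92 bases before the start: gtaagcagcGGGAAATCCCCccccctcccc
Nfkbie, chr17:45555584-45555613, plus strand, 106 bases before the start: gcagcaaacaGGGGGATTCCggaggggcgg

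Nfkb2 held further matches in its windows, 1 of them 39 bases before the same start (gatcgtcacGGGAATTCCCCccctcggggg), and Tnfaip3 held a further match 125 bases before its start. For comparison, 4.51% of 32851 windows and 5.14% of 27025 genes held a match, and 6.32% of 4083 genes at 20 CPM or more over all cells did. In the wider pathway, matches were found for 6 of 12 other feedback genes, 8 of 22 induced targets, 2 of 6 receptors, and 2 of 16 adaptors and kinases with a window. A match describes letters in a window and is neither a binding site nor a cause of a level.

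**Figure D1:**
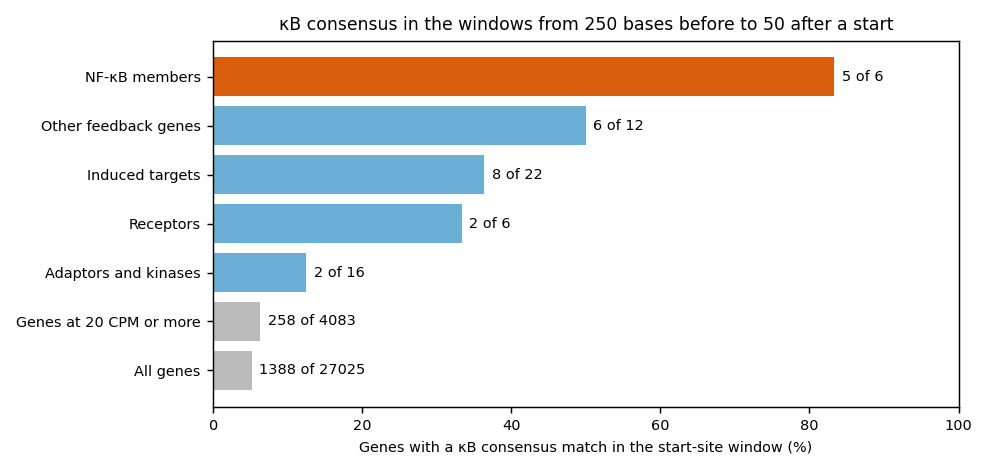
Share of genes with a κB consensus match in the window around the start, in percent, for the NF-κB members, the 4 wider pathway lists, genes at 20 CPM or more and all genes. Beside 5.14% of all genes, a match was held by 5 of 6 members, 6 of 12 other feedback genes, 8 of 22 induced targets, 2 of 6 receptors, and 2 of 16 adaptors and kinases. The sets are small and were chosen as known genes of the pathway, and their shares were not tested.

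Nfkbia (chr12:55489410-55492647, GRCm38), which encodes the classical inhibitor IκBα, was the most abundant of the 9 in every cluster. It stood at 199 CPM in cycling cells (interval 168 to 233), 249 CPM in the immature cluster (229 to 271), 376 CPM in the Retnlg-led cluster (356 to 397) and 458 CPM in the stefin cluster (436 to 481). The Jaml-led cluster reached 674 CPM (629 to 721), the Pf4-led cluster 644 CPM (594 to 697) and stromal cells 776 CPM (753 to 800). Jaml-led and Pf4-led cells did not differ beyond their intervals, and the cycling and immature intervals overlapped too. Each other step in the order lay beyond the intervals, for the clusters used here only. Over the alternative settings, the level ran from 286 to 555 CPM in the Retnlg-led and 439 to 509 CPM in the stefin cluster. It ran from 487 to 897 CPM in the Pf4-led cluster and 776 to 793 CPM in stromal cells, so these ranges overlapped. In the Jaml-led cluster it ran from 462 to 768 CPM. That range overlapped the Retnlg-led, stefin and Pf4-led ones but not the stromal one.

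The share of cells with an Nfkbia UMI depends on depth as well as on level. It was 69.8% in the immature cluster (median 7901.5 UMIs per cell) and 70.8% in the Jaml-led cluster (2513 UMIs). When every cell was reduced at random to 1000 UMIs, and 171 cells under that depth were set aside (48 OVX, 85 sham), the shares were 20.4% and 41.3%, with 12.5% in cycling cells and 47.0% in stromal cells (92.4% unthinned). A list of 12 genes known to respond to tissue dissociation was drawn up without the 9. It summed to 1586 CPM in the immature, 1663 CPM in the cycling, 1841 CPM in the Pf4-led and 2002 CPM in the stefin cluster. The Retnlg-led cluster had 2129 CPM, the Jaml-led 2989 CPM and the stromal 3768 CPM. Whether any of the 9 responds to dissociation too was not tested, nor was its part in the Nfkbia levels.

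Tnfaip3 (chr10:19000910-19015657) encodes A20, a ubiquitin-editing enzyme that shuts off signalling above the IκB kinases. It was scarce: 2.61 CPM in cycling cells (2 UMIs), 5.84 CPM in the immature cluster, 10.7 CPM in the Retnlg-led, 18.1 CPM in the stefin and 30.3 CPM in the Jaml-led cluster (interval 21.4 to 41.6). Stromal cells held 5.67 CPM (3.85 to 8.04) and the Pf4-led cluster 10.3 CPM (4.96 to 19.0). Tnfaip3 UMIs per 100 Nfkbia UMIs were 0.730 in stromal cells (0.495 to 1.04) and 4.50 in the Jaml-led cluster (3.16 to 6.22). The value was also low in the Pf4-led cluster at 1.61 (0.766 to 2.97) and in cycling cells at 1.32 (0.158 to 4.84). Both of these intervals overlapped the stromal one. Cycling cells had the lowest Nfkbia level, but the Pf4-led cluster had a high one. High Nfkbia with little Tnfaip3 was thus not particular to stromal cells.

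Nfkbiz (chr16:55811375-55838899) encodes IκBζ, a nuclear IκB protein that co-activates secondary targets. It was highest in the Retnlg-led cluster at 96.7 CPM (86.6 to 108) and the Jaml-led cluster at 85.3 CPM (69.9 to 103), which did not differ beyond their intervals. The stefin cluster stood at 63.2 CPM, stromal cells at 60.1 CPM, the immature cluster at 50.3 CPM, cycling cells at 34.0 CPM and the Pf4-led cluster at 24.8 CPM (15.9 to 36.9). Nfkbie (chr17:45555703-45563169), which encodes IκBε, stayed under 22 CPM throughout, with 21.7 CPM in the Pf4-led cluster (13.4 to 33.2) and 6.29 to 14.3 CPM in the others.

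**Figure D2:**
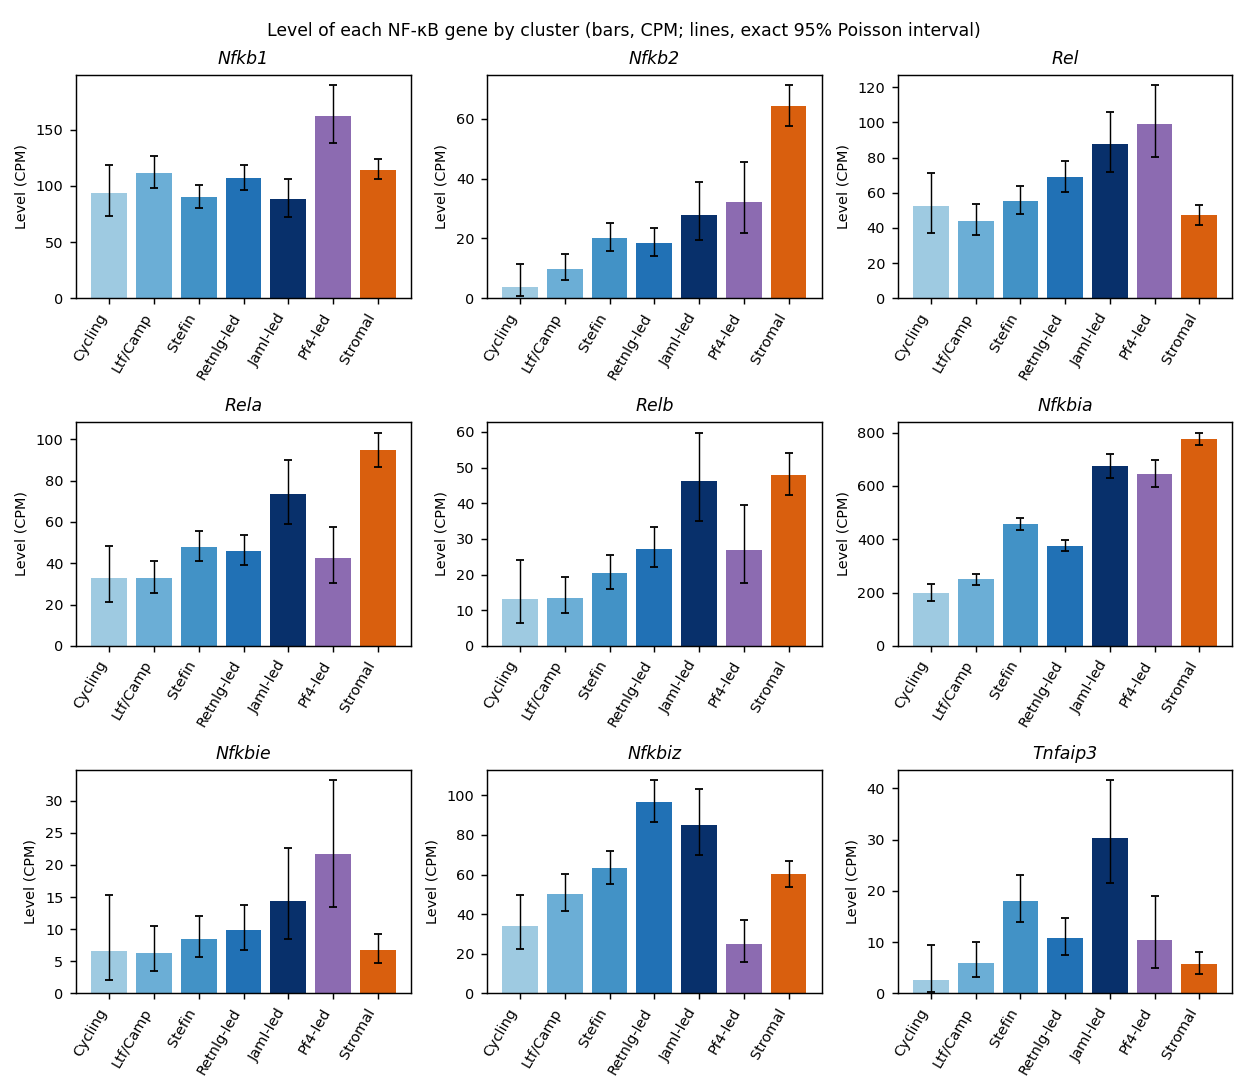
Level of each of the 9 genes by cluster, in UMIs per 1000000 UMIs (CPM), with bars from 0 and exact Poisson 95% intervals; each panel has its own scale. Nfkbia, Relb, Rela and Tnfaip3 are higher in the Jaml-led than in the Ltf/Camp cluster, Nfkb1 differs least between clusters, and Nfkb2 is highest in stromal cells at 64.1 CPM.

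Among the subunits, Nfkb1 (chr3:135584655-135691547), whose precursor p105 is cut to p50, varied least. It ran from 88.5 CPM in the Jaml-led cluster (interval 72.8 to 107) to 114.6 CPM in stromal cells (106 to 124) and 162 CPM in the Pf4-led cluster (138 to 190). Rel (chr11:23736847-23770970), the lymphoid and myeloid subunit c-Rel, ran from 44.0 CPM in the immature cluster (35.7 to 53.6) over 68.9 CPM in the Retnlg-led to 87.7 CPM in the Jaml-led cluster (72.1 to 106) and 99.2 CPM in the Pf4-led cluster. Stromal cells held 47.2 CPM of Rel, close to the immature level.

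Rela (chr19:5637483-5648130), the main activating subunit p65, stood at 32.7 CPM in cycling and 32.8 CPM in immature cells, 46.0 CPM in the Retnlg-led and 48.0 CPM in the stefin cluster, 73.3 CPM in the Jaml-led cluster (59.1 to 89.9) and 94.7 CPM in stromal cells (86.7 to 103). Relb (chr7:19606217-19629438), a subunit of the non-canonical arm, stood at 13.5 CPM in immature cells (9.09 to 19.2), 20.3 CPM in stefin, 27.2 CPM in Retnlg-led, 46.2 CPM in Jaml-led (35.1 to 59.8) and 47.9 CPM in stromal cells (42.3 to 54.1). Nfkb2 (chr19:46304320-46312385), whose precursor p100 is the inhibitor and substrate of that arm, stood at 3.92 CPM in cycling cells (3 UMIs), 9.88 CPM in immature and 27.9 CPM in Jaml-led cells (19.4 to 38.8), and at 64.1 CPM in stromal cells (57.6 to 71.2). Nfkb2 was the subunit whose stromal interval lay above that of every other cluster, and Relb did not differ between stromal and Jaml-led cells beyond the intervals.

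The 5 subunits summed to 196 CPM in cycling, 212 CPM in immature, 234 CPM in stefin, 268 CPM in Retnlg-led, 324 CPM in Jaml-led, 363 CPM in Pf4-led and 368 CPM in stromal cells. Their mixture differed. Nfkb1 supplied 52.8% of subunit UMIs in the immature cluster (interval 48.1 to 57.3), 27.3% in the Jaml-led cluster (23.1 to 32.0) and 31.1% in stromal cells. Rela UMIs per Nfkb1 UMI were 0.293 in immature, 0.829 in Jaml-led, 0.826 in stromal and 0.261 in Pf4-led cells. Nfkb2 supplied 17.4% in stromal cells and 7.01% over the neutrophil clusters. Counting 1 end per transcript makes these values free of transcript length, but genes can still differ in capture, so the comparison is between clusters.

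Nfkbia per subunit UMI was 1.01 in cycling, 1.18 in immature, 1.40 in Retnlg-led, 1.77 in Pf4-led, 1.96 in stefin, 2.08 in Jaml-led and 2.11 in stromal cells. Nfkbia thus differed more between clusters than the subunits' sum did.

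**Figure D3:**
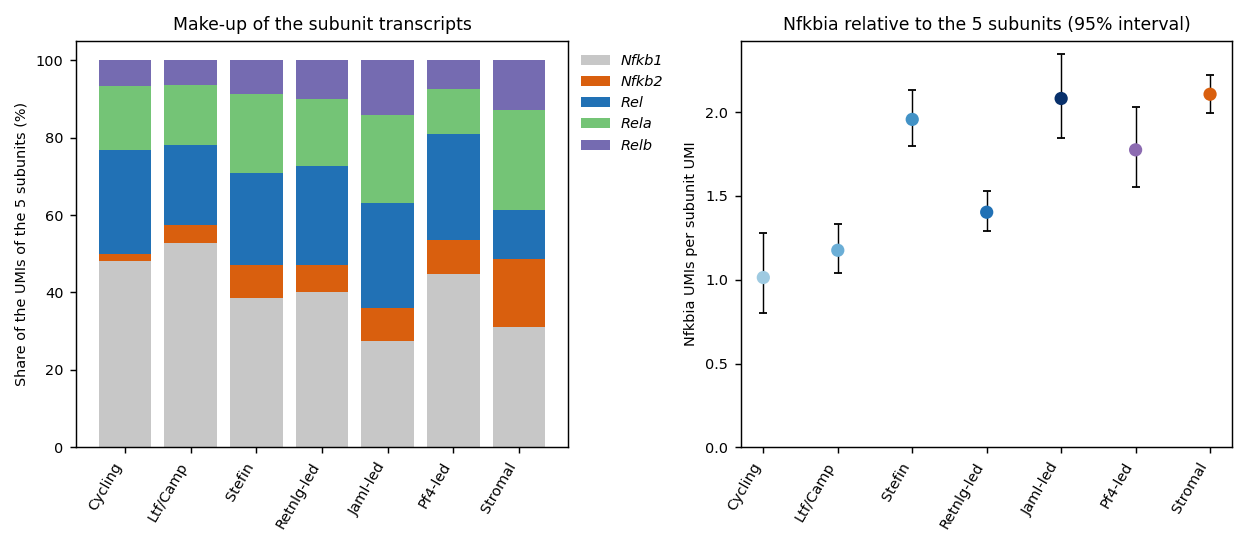
Left, share of each subunit among the UMIs of the 5 subunits, in percent, by cluster, as stacked bars. Right, Nfkbia UMIs per subunit UMI with 95% intervals. Nfkb1 takes 52.8% in the Ltf/Camp cluster and 27.3% in the Jaml-led cluster, and Nfkbia per subunit UMI is 1.18 and 2.08 in them.

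Set against the immature cluster, the Jaml-led cluster had 5 of the 6 genes at 20 CPM or more called higher and none lower, where 35.5% of 4070 genes were higher and 22.6% lower. Nfkbia was 2.70-fold higher (2.43 to 3.01), Relb 3.43-fold (2.17 to 5.53), Rela 2.24-fold (1.63 to 3.08), Rel 1.99-fold and Nfkbiz 1.70-fold (1.29 to 2.23). Nfkb1 had a ratio of 0.791 (0.627 to 0.994). Under 20 CPM, Tnfaip3 had a ratio of 5.19 (2.70 to 10.6), Nfkb2 2.82 (1.61 to 5.05) and Nfkbie 2.28 (1.07 to 4.96). The median log2 ratio was 1.08 over the 6 genes and 0.24 over all genes.

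The Retnlg-led cluster had 4 of 6 called higher than the immature cluster (22.5% of 3861 genes were, and 19.6% were lower): Relb 2.02-fold, Nfkbiz 1.92-fold, Rel 1.57-fold and Nfkbia 1.51-fold. The stefin cluster had 1 of 5, Nfkbia at 1.84-fold (21% of 3883 genes were higher and 19.6% lower), and the cycling cluster none of 5 (27.7% of 4309 genes were higher and 20.5% lower). Between-cluster borders were soft, however. Ratios were compared over 14 settings, with the immature cluster taken as that highest in Ltf and Camp. These were the main setting, other random starts, other clustering choices, a barcode filter, doublet removal, equal weight per cell and another scaling. They overlap and are not independent checks. The Retnlg-led ratios went down to 0.828 for Relb, 1.06 for Rel and 1.05 for Nfkbia. For the Jaml-led cluster Nfkbia kept ratios of 1.68 to 2.93 and Relb of 1.95 to 5.30. Rela and Nfkbiz went down to 1.47 and 1.38 there. Under settings whose cluster first taken as immature was not led by Ltf and Camp, the Jaml-led ratios turned, to as low as 0.577 for Nfkbia and 0.778 for Rel.

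The rest of the pathway was read from lists. In the Jaml-led against the immature cluster, 3 of 4 receptors, 8 of 14 adaptors and kinases, 6 of 7 other feedback genes and 13 of 18 induced targets at 20 CPM or more were called higher and none lower, beside the 35.5% of all genes higher and 22.6% lower. Tlr4, the receptor for bacterial lipopolysaccharide, was 5.08-fold higher. Ikbkg, the regulatory subunit NEMO of the IκB kinase, was 5.40-fold higher, and the neutrophil chemokine gene Cxcl2 5.79-fold higher at 6171 CPM against 1066 CPM.

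Stromal cells against the neutrophil clusters had 4 of 7 genes called higher and none lower (47.7% and 31.3% of 5008 genes). These were Nfkb2 at 3.70-fold (3.10 to 4.43), Rela at 2.05-fold (1.81 to 2.32), Relb at 2.04-fold (1.71 to 2.43) and Nfkbia at 1.95-fold (1.87 to 2.03). Nfkb1 had a ratio of 1.15, Nfkbiz 0.842 and Rel 0.777, and under 20 CPM Nfkbie had 0.753 and Tnfaip3 0.414 (0.272 to 0.611). When each cell counted equally, Relb stood at 1.49. The median log2 ratio was 0.96 over the 7 genes and 0.46 over all genes. Of the upstream lists, 3 of 5 receptors and 8 of 15 adaptors and kinases were lower and 1 and 5 higher. Tlr4 had a ratio of 0.047 and Ikbkg of 0.18. Of the same kinase as Ikbkg, Chuk was 1.60-fold higher (1.34 to 1.91) and Ikbkb had a ratio of 0.852 (0.723 to 1.00). Of the 21 induced targets, 12 were higher and 9 lower, with Cxcl1 102-fold and Ccl5 185-fold higher and Ccl3 at 0.0199.

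The Pf4-led cluster had 3 of 6 genes called higher than the neutrophil clusters and 1 lower (36.9% and 24% of 4142 genes). Rel was 1.64-fold, Nfkb1 1.62-fold and Nfkbia 1.62-fold higher, and Nfkbiz had a ratio of 0.347 (0.221 to 0.521).

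The comparison of OVX and sham is what the design was made for. Over all cells, none of the 7 genes at 20 CPM or more was called, where 21.8% of 4835 genes were (4.59% higher and 17.2% lower), and none at 20 CPM or more was called under any of the alternatives tried. Nfkbia held 525.2 CPM in OVX against 493.8 in sham, a ratio of 1.06 (1.02 to 1.11). Nfkb1 had a ratio of 0.927, Rel 1.08, Rela 0.906, Relb 0.921 and Nfkbiz 0.958. Nfkb2 stood at 26.0 and 32.5 CPM, a ratio of 0.801 (0.657 to 0.976), but its direction turned under some alternatives. The ratio was 1.54 without the stromal cluster, where Nfkb2 was under 20 CPM and so not counted. It was 1.43 with the same cluster shares in both pools and 1.23 with equal weight per cell. Those shares were shares of cells, whereas the main ratio weights clusters by their UMIs. That setting therefore also lowers the weight of the deep stromal cells. The ratio with matched shares of UMIs was not computed. Below 20 CPM, Nfkbie had a ratio of 1.09 and Tnfaip3 of 1.25 (0.917 to 1.71), which turned to 0.776 with equal weight per cell and 0.938 with the same cluster shares. The median log2 ratio was −0.109 over the 7 genes and −0.175 over all genes.

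The pools differed in their cells. The stefin cluster held 386 OVX and 58 sham cells, and the Retnlg-led cluster 254 and 506, so pooled ratios mix levels with proportions. The median depth was 4812 UMIs in OVX and 3704 in sham cells. Dissociation-responsive genes summed to 2173 CPM (OVX) and 2525 CPM (sham), and the macrophage list to 329 and 750 CPM. Their part in the ratios was not tested.

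Over the 5 neutrophil clusters, none of 6 genes was called (5.51% of 3953 genes were higher and 7.21% lower). Nfkbia held 455 CPM in OVX against 337 in sham, a ratio of 1.35 (1.27 to 1.44). It was 1.17 when both pools were given the same cluster shares, counted in cells, and 1.12 when each cell counted equally. Nfkb2, under 20 CPM, had 129 UMIs in OVX and 53 in sham, 20.7 and 12.6 CPM, a ratio of 1.64 (1.19 to 2.31). Nfkbiz had a ratio of 0.848 (0.732 to 0.983) and Nfkb1 0.911.

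Within clusters, 16 of 46 pairs of gene and cluster at 20 CPM or more were called, 12 higher and 4 lower in OVX. Of all genes, 4.46% (immature) to 21.5% (stefin) were called higher by cluster, and 8.04% (stromal) to 24.4% (Pf4-led) lower. Clustering with the pathway genes included gave 8 or 9 such pairs, and ended those of Nfkbiz in the immature cluster, Nfkbia and Nfkb2 in the stefin cluster, and Nfkb1 and Tnfaip3 in the Jaml-led cluster. In the immature cluster 1 of 5 genes was called, Nfkbiz at 33.4 CPM (OVX) against 60.5 (sham), a ratio of 0.551 (0.344 to 0.864), where 14.5% of 3970 genes were lower and 4.46% higher. In the Retnlg-led cluster none of 6 was called (5.72% of 3671 genes were higher and 8.91% lower), with Nfkbia at a ratio of 1.23 (1.09 to 1.38), while Rel reached 1.54 with equal weight per cell. In the cycling cluster Rela alone of 5 was called, on 14 and 7 UMIs (13.6% of 4865 genes were higher and 22.3% lower).

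In the stefin cluster 3 of 7 genes were called higher in OVX (21.5% of 3737 genes were higher and 9.39% lower), of which only Nfkbia rested on a deep count: 473 CPM (OVX) against 305 (sham), 1440 and 106 UMIs, a ratio of 1.55 (1.27 to 1.91) that became 1.30 with equal weight per cell. Nfkb2 rested on 65 and 3 UMIs (2.47, interval 0.81 to 12.3) and Relb on 66 and 4 (1.88, 0.702 to 7.12), both intervals including 1. Tnfaip3, under 20 CPM, had 58 and 2 UMIs. Among the 18 induced targets at 20 CPM or more, 10 were called higher and none lower, with Cxcl2 2.76-fold, Ccl3 2.81-fold and the feedback gene N4bp1 3.58-fold higher.

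In the Jaml-led cluster 2 of 8 genes were called higher and 1 lower (19.8% and 12.2% of 3946 genes). Nfkb1 stood at 104 and 56.4 CPM (1.84, interval 1.13 to 3.11), Nfkb2 at 31.8 and 18.8 CPM (1.69, 0.718 to 4.60), and Tnfaip3 at 24.7 and 45.7 CPM (0.541, 0.272 to 1.09). Nfkbia did not differ beyond counting error in this cluster where its level was high, with 655 and 712 CPM (0.921, 0.794 to 1.07).

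The Pf4-led cluster had the most calls, 6 of 8 higher and 1 lower in OVX (11.7% and 24.4% of 5539 genes), in 36 OVX and 60 sham cells. Rel stood at 184 and 67.9 CPM, a ratio of 2.71 (1.77 to 4.16) on 50 and 44 UMIs, and 5 cells held 68% of the OVX UMIs. Nfkbia stood at 847 and 560 CPM (1.51, 1.28 to 1.79), Nfkb1 at 221 and 133 CPM (1.66, 1.18 to 2.34) and Relb at 47.9 and 20.1 CPM (2.39, 1.02 to 5.59). Nfkb2 (1.94) and Nfkbie (1.74) were also called higher and Rela (0.636) lower, on intervals that included 1. These calls were fragile: with each cell weighted equally Nfkb2 reversed to 0.835 and Nfkb1 had 1.06. Clustering with the pathway genes included gave Relb 0.969 and Nfkbie 0.847. Over the alternatives Nfkbia went as low as 1.18, which ends its call. Rela had 0.733 when a pool was assigned by a simple share of hashtag UMIs, which ends its call too. Rel kept its call in every alternative tried.

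In stromal cells 1 of 7 genes was called, where 8.04% of 5673 genes were lower and 4.85% higher. Nfkb2 had 61 UMIs in OVX and 141 in sham, 47.1 and 87.9 CPM, a ratio of 0.536 (0.391 to 0.729). It was 0.681 when a pool was assigned by a simple share of hashtag UMIs, which ends the call. Nfkbia (0.905, 0.834 to 0.981), Rela (0.827), Relb (0.719), Rel (0.744) and Nfkb1 (0.985) were not called. With equal weight per cell Rel had 0.441, Relb 0.471 and Nfkb1 0.624, past 1.5-fold lower, beside 0.505 for Nfkb2. Tnfaip3, under 20 CPM, had 3 and 18 UMIs (0.207, 0.039 to 0.708), with 5 cells holding 83.3% of the sham UMIs. Only 38 OVX and 55 sham cells entered, as 52.9% of stromal barcodes were under the hashtag cutoffs. Among induced targets 6 of 15 were lower in OVX and none higher, with Ccl2 at 175 and 2420 CPM and Cxcl2 at a ratio of 0.370.

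**Figure D4:**
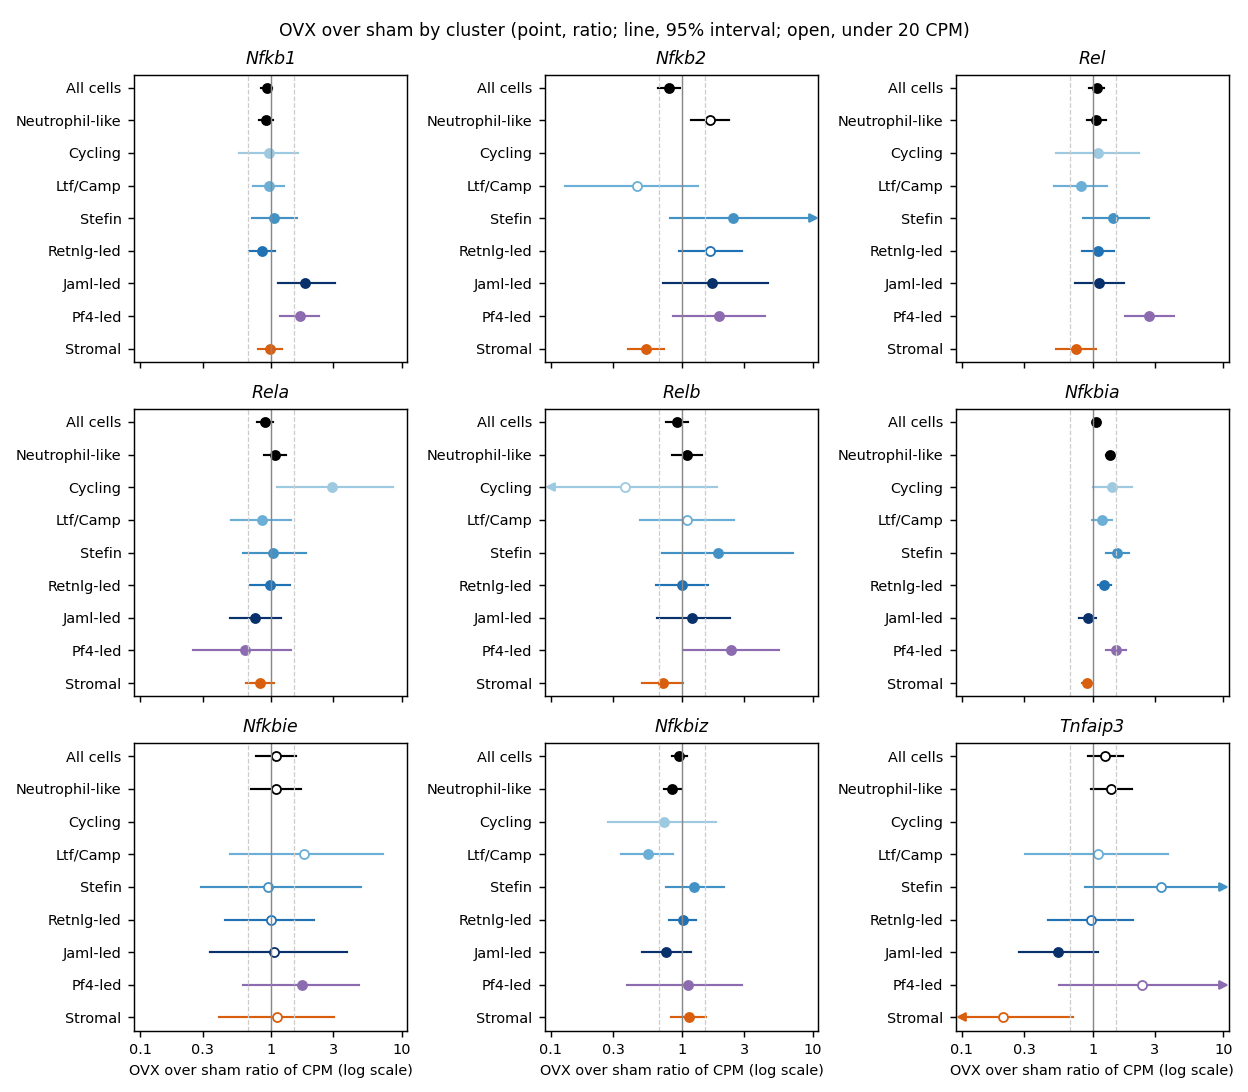
Ratio of OVX to sham CPM on a log axis for each of the 9 genes, over all cells, the neutrophil clusters and each cluster, with exact 95% intervals; ratios on fewer than 10 UMIs are not drawn, open symbols are under 20 CPM and dashed lines mark 1.5-fold. Over all cells every gene lies inside the lines. Nfkb2 lies above 1 over the neutrophil clusters together (1.64) and below it in stromal cells (0.536).

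Over all cells, none of 4 receptors and none of 15 adaptors and kinases was called between OVX and sham. Among other feedback genes 1 was higher and 1 lower of 8, and among induced targets 1 was higher and 3 lower of 21. These stand beside the 4.59% of all genes called higher and 17.2% lower. N4bp1 was 1.90-fold and Ccl3 1.58-fold higher in OVX, while Ccl2 had a ratio of 0.089, Cxcl1 0.365 and Ptgs2, the prostaglandin synthase gene, 0.504. Ccl2, Cxcl1 and Ptgs2 stood at 1655, 5568 and 311 CPM in stromal cells and at 22.8, 54.4 and 12.1 CPM in the neutrophil clusters. Stromal cells were 3.59% of OVX and 5.61% of sham cells (38 and 55 cells). The part of this difference in the 3 ratios was not tested. Bcl2a1a stood at 226 (OVX) and 151 CPM (sham) but shares sequence with close paralogs, so its reads may be split.

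The profile of each gene over 14 groups (7 clusters by 2 pools) was compared with others by Pearson's r of log2(CPM + 10). The search took in 5183 genes at 50 CPM or more in at least 1 group. It is a description over groups that share 1 library and differ in depth. Nfkbia was most like Atp2b1 (0.954), Tgif1 (0.940) and Mef2d (0.926), and Nfkb2 most like Arhgap5 (0.914), Nfkbia (0.909) and Traf1 (0.893). Relb was most like Acbd5 (0.909), Traf3 (0.899) and Gm20186 (0.885), and Rel most like B2m (0.855), Cd86 (0.844) and Gpr137b (0.839). Tnfaip3 was most like Npc1 (0.916), Nfkbie most like Irf5 (0.939), Nfkbiz most like Ccdc186 (0.941), Rela most like Ankrd13c (0.884) and Nfkb1 most like Blvra (0.888). These are the highest values among 5183 genes over 14 groups, so a high r can come from the search alone. No reference value was computed. The Tnfaip3 and Nfkbie profiles also rest on few UMIs in some groups. Among the 9, Nfkbia and Relb had an r of 0.849 and Rel and Nfkbie 0.883, whereas Nfkb1 and Nfkbiz ran opposite at −0.571. Nfkbie was under 50 CPM and so not searched, and its r with Rel is above those ranked for Rel.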

How the data were processed

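The UMI counts were made by the authors with Cell Ranger, given as 6.0.1 in the methods and processing notes and as 6.0.0 in the deposited file header, against mm10; deposited counts are whole numbers per gene and barcode, and all 2349 barcodes were used. The featureCounts version in the notes (1.5.0-p3) belongs to other RNA-Seq of the study. Hashtag counts in the same matrix were called with HTODemux (Seurat 5.3.0, R 4.3.3, quantile 0.99). Counts were scaled to 10000 per cell and logged, 2000 variable genes were chosen with 79 NF-κB pathway genes left out, and 30 components and 15 neighbors were clustered by Louvain at resolution 0.35 into 6 clusters (scanpy 1.11.5, igraph 0.11.9, Python 3.11.15). The cluster highest in Mki67 and Top2a was split at 0.15, giving 7. UMIs were then summed per group. Cells are not replicates, so levels, intervals and folds are given without tests. The ratio and interval code was run on Poisson counts simulated for OVX and sham. Such counts lack the clumping in few cells seen here, so that run cannot show how the intervals hold for real counts. Clustering, cluster naming and hashtag calls were not simulated. No doublet removal was applied beyond reporting the calls: Scrublet marked 1 barcode, too few to be informative, and 78 barcodes positive for both hashtags stayed in cluster levels but in no OVX or sham value. Genes were named by rule: the members, the 3 most abundant genes of each wider list, the 3 furthest in each OVX to sham ratio, and the 3 most alike in profile. Ptgs2, Ccl2, Ccl3 and Bcl2a1a come from the last but one. Outside the rule, Chuk and Ikbkb are named beside Ikbkg as genes of the same kinase. The members and lists were chosen with earlier results of these data known. A separate hashtag library sample was not analysed here.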

Additional observations from a re-analysis of the deposited data

Results flagged for a closer look

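Nfkb2 was flagged because its OVX to sham ratio lay on opposite sides of 1 in 2 kinds of cell: 1.64 in the neutrophil clusters (129 and 53 UMIs, interval 1.19 to 2.31) and 0.536 in stromal cells (61 and 141 UMIs, interval 0.391 to 0.729). The difference between them was not tested, since each condition is 1 pool. The neutrophil value lies under 20 CPM, and the stromal value rests on 38 OVX and 55 sham cells.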

How the results depend on the processing

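Of the single values recomputed under alternatives, 1662 stayed within their error, 415 moved and 27 reversed; of the counts, 54 stayed within 1.5 times and 14 moved. With a 2-fold rule, the pairs of gene and neutrophil cluster called against the immature cluster fell from 10 of 22 to 4, and the OVX to sham pairs within clusters from 16 of 46 to 4. Without a filter on low values they were 21 and 25, and with one at 100 CPM 3 and 4; the neutrophil OVX to sham count was then 1 without a filter, and the stromal count 1 with the 100 CPM filter. Clustering with the NF-κB genes gave 9 within-cluster pairs, or 8 after renaming. Equal weight per cell split the within-cluster calls 9 higher and 9 lower, against 12 and 4. The share of all genes called was not computed under any alternative, so counts under alternatives have no such reference.

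Cluster names mattered. In 3 of 5 other random starts, and with the NF-κB genes included, the cluster first named immature was not the one led by Ltf and Camp (30 cells in the latter case). The renaming by those genes was made after these values were seen, so both are given. As first named, other starts gave 16, 16 and 18 pairs past 1.5-fold, mostly lower; renamed, one gave 5. In the cluster first named stefin, Nfkbia stood at 0.391 with the NF-κB genes and 0.438, 0.393 and 0.384 by start. Where it was 0.438, Ltf and Camp summed to 4965 CPM in that cluster and 38.8 CPM in the one named immature. Where it was 0.393, they summed to 7679 and 46.0 CPM. Both ratios thus had the cluster higher in these granule genes as numerator, the reverse of the comparison in the Results. As first named, Nfkbia stood at 0.288, 0.866, 0.829 and 0.505 in the Retnlg-led cluster, and at 0.577, 0.833 and 0.730 in the Jaml-led cluster. Rel stood at 0.557, 0.556 and 0.645 in the Retnlg-led and 0.819, 0.778 and 0.852 in the Jaml-led cluster. Relb stood at 0.575, 0.629 and 0.867 in the Retnlg-led cluster, and at 0.828 and 0.956 for the renamed partitions. In the Pf4-led cluster OVX over sham, Nfkb2 was 0.835 with equal weight per cell, and Relb 0.969 and Nfkbie 0.847 with the NF-κB genes. The cause was not tested.

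Other starts agreed only in part with the clusters used here, so borders between neutrophil clusters limit every within-cluster value; few UMIs limit Nfkb2, Nfkbie and Tnfaip3. No paired analysis was possible because each condition is 1 pool.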
